A study of Mus musculus with 36 samples.

Results

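The genes described here are 47 genes of DNA replication and of the passage from G1 into S phase, chosen by symbol, out of 27179 mouse genes in the count table. All 47 were in the table and all passed the filter on low counts, which kept 12321 genes. RNA was sequenced from 3 mouse lymphoma cell lines, AH47A, 287 and 621, of the Em-myc background, in which a Myc transgene driven by an immunoglobulin heavy chain enhancer gives B cell lymphomas. Each line carried a negative control construct or 1 of 5 TRP53 mutants (V170M, I192S, R246Q, R270H or G280), and each was sampled with nutlin-3a and untreated, which gave 36 libraries in 12 groups of 3 (1 library per line). The nutlin groups, 5 mutant and 1 control, had 5 µM nutlin-3a, which frees p53 from MDM2, for 12 hours with 25 µM QVD-OPH, a broad caspase inhibitor. The untreated groups had no nutlin-3a. The sources used here do not say whether they had QVD-OPH, and without it the 2 agents cannot be told apart. In every group nutlin-3a acts on wild-type TRP53 of the line, according to the design text, which calls the mutant proteins human.

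Replication origins are licensed in G1, when the origin recognition complex, CDC6 and CDT1 load the MCM helicase. In S phase CDC45 and the GINS complex activate the helicase, primase and the replicative polymerases copy the DNA, and the PCNA clamp, loaded by replication factor C, holds the polymerases on it. Many of these genes are known targets of E2F factors, which RB family proteins repress, and p53 acts on that axis by inducing the CDK inhibitor p21, encoded by Cdkn1a. In bulk RNA, fewer cells in S phase and less RNA of these genes per cell cannot be told apart.

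Total counts ran between 5404113 and 10718302 per library. Nutlin libraries had a median total of 7364608.5 and untreated ones of 8472640.5, and the lowest count of any of the 47 genes in any library was 38. Of 10 B cell markers 9 were well expressed, and Ms4a1 reached at most 9 CPM (counts scaled to library size after TMM normalisation). T cell, myeloid, erythroid and fibroblast markers were near 0, including Cd4 and Trbc1 at 0 in every library, except Itgam, up to 49.3 CPM, and Zap70, up to 21.7 CPM. In line 287 the summed myeloid markers ranged from 34.6 to 54.7 CPM in nutlin libraries and from 14.4 to 23.3 CPM in untreated libraries, and in AH47A from 9.5 to 27.2 CPM and from 5.35 to 7.28 CPM. The summed T cell markers of line 287 ranged from 17.2 to 22.7 CPM in nutlin and from 5.47 to 6.98 CPM in untreated libraries. The summed B cell markers were lower with nutlin-3a, with no overlap in AH47A (1286 to 1429 CPM against 1711 to 1893 CPM) or 287 (1429 to 1698 CPM against 1990 to 2204 CPM) and with overlap in 621 (1637 to 2085 CPM against 1953 to 2600 CPM). The part of these markers in the results was not tested. Cdkn1a averaged 413 ± 186 CPM in nutlin control cells and 4.18 ± 2.72 CPM in untreated control cells (SD, n = 3 each).

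Promoters are shown for 3 genes with the smallest p-values in the control response that had a sequence at hand, Pcna, Uhrf1 and Rpa2, and for the 2 with the largest, Orc6 and Cdc45. Each runs 5′ to 3′ from 250 bases before to 50 bases after the gene's start in RefSeq (GRCm38.p6), and capitals mark matches on either strand to 3 kinds of motif. The E2F core was searched as TTCCCGC and as its variants, which were TTCGCGC, then the form TTGGCGC, and finally the form TTGCCGC. The core of the cell cycle homology region (CHR) was searched as TTTGAA, and the CCAAT box by its name.
Pcna, chr2:132253131-132253430, minus strand: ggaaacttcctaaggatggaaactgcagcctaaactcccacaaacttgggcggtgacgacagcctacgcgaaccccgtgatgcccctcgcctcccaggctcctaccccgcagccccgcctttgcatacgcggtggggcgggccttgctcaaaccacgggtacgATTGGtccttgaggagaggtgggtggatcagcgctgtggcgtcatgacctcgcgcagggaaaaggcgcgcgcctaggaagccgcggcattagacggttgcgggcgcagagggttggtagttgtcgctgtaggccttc
Uhrf1, chr17:56303087-56303386, plus strand: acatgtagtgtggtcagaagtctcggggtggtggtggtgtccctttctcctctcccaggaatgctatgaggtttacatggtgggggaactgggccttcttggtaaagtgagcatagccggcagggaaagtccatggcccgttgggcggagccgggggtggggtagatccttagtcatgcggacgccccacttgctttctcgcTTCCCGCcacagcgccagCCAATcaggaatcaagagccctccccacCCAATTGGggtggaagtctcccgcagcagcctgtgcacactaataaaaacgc
Rpa2, chr4:132768110-132768409, plus strand: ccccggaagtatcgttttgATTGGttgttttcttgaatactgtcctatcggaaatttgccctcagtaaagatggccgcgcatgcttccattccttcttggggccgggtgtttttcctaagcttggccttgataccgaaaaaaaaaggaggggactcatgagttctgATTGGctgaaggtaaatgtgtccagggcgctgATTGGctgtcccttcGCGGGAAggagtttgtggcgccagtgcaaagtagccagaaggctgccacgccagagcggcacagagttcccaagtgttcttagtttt
Orc6, chr8:85299382-85299681, plus strand: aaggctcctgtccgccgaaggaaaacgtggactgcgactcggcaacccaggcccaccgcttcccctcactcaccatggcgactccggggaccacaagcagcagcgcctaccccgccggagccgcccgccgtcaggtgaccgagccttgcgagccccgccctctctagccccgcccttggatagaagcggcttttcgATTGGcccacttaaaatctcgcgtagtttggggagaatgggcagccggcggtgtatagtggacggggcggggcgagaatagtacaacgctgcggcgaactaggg
Cdc45, chr16:18811923-18812222, minus strand: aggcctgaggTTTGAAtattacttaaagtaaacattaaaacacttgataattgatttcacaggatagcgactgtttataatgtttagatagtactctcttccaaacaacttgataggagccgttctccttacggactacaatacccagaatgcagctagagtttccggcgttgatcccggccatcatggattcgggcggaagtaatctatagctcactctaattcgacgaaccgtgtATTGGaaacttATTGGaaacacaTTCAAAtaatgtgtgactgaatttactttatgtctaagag
Uhrf1 and Rpa2 each held 1 E2F core match, starting 48 and 37 bases before the start, and Pcna, Orc6 and Cdc45 held none in this window. An E2F core match was present in 23 of the 39 members with a promoter in the table (59%), against 17.7% of 9360 promoters of tested genes and 9.69% of all 27025 promoters. Among members that fell in the control it was present in 14 of 21 (66.7%), and among those not called in 8 of 17 (47.1%). CCAAT was present in 61.5% of members and 39.9% of promoters of tested genes, and TTTGAA in 10.3% and 12.3%. The genes with no promoter in the table were Mcm4, Gins1, Gins2, Gins4, Prim2, Pole, Rfc2 and Ccne2. The adjacent CCAAT matches at the Uhrf1 start overlap each other. A match describes letters in this window and not a bound site.

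In control cells nutlin-3a lowered much of the replication programme. Whether subunits of the same complex differed in response was not tested. Of the 47 genes 27 fell, 1 rose and 19 did not pass the test (edgeR's quasi-likelihood test, adjusted p under 0.05 over 12321 genes). Among all genes tested 20.8% fell and 21.9% rose. The median log2 response of the 47 genes was -0.33, against -0.01 over all genes, and 43 of 47 values were negative. Control nutlin libraries were below control untreated libraries in every line for 38 of the 47 genes (80.9%), against 31.8% of all genes. The cell line was a term of the model. Without line 287 the number of called genes was 13, and without the untreated control library of line 287 it was 17, in place of 28. Of the 28 calls, 9 were kept under all 15 alternatives: Orc1, Cdc6, Gins2, Pcna, Rpa2, Rrm2, Ccne2, Uhrf1 and Slbp.

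**Figure D1:**
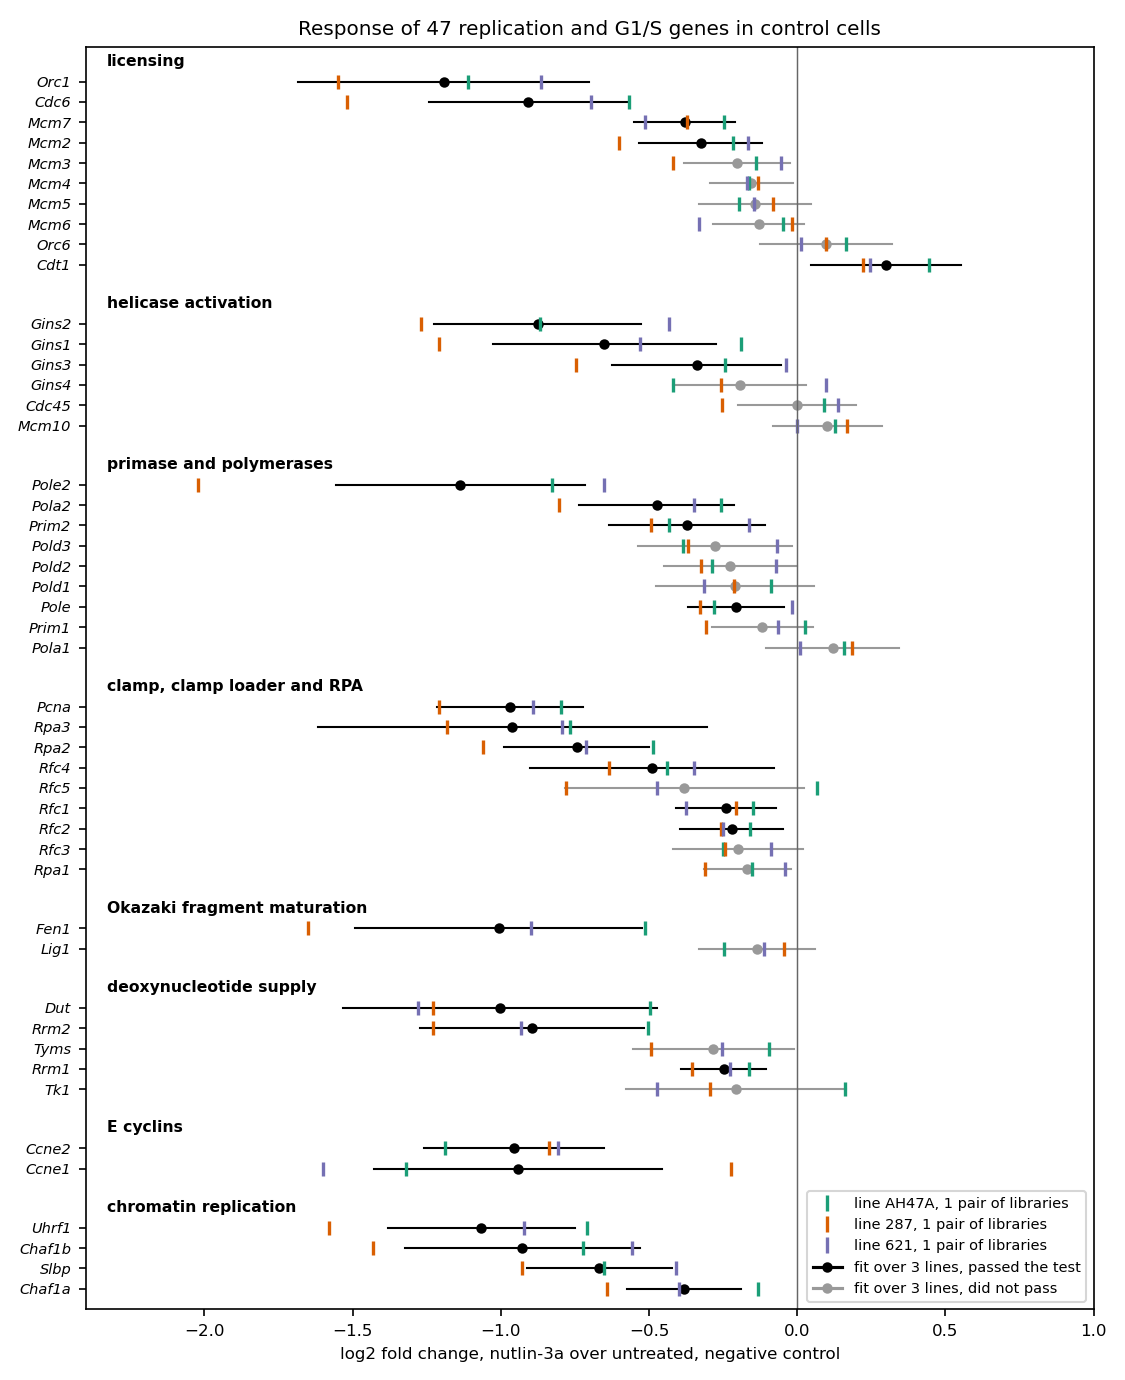
The log2 fold change of nutlin-3a over untreated is plotted for each of the 47 genes in control cells, by role. Circles and bars are the fit over 3 lines with its 95% interval, black where the test was passed, and coloured ticks are single lines. Most genes lie left of 0, with Orc1 at -1.19 and Cdt1 at 0.30 as the ends.

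Among the licensing genes 4 of 10 fell and 1 rose. Orc1, the large subunit of the origin recognition complex, averaged 19.7 ± 7.79 CPM in nutlin and 43.3 ± 7.45 CPM in untreated control cells (SD, n = 3 each), a log2 response of -1.19 ± 0.24 (SE, edgeR adjusted p = 0.000352). Orc6, another subunit, had a log2 response of 0.10 ± 0.11 (edgeR adjusted p = 0.486). Cdc6, a helicase loader, fell by 0.91 ± 0.16 on the log2 scale. The MCM helicase genes moved less: Mcm7 fell by 0.38 and Mcm2 fell by 0.33, while Mcm3, Mcm4, Mcm5 and Mcm6 had log2 responses between -0.20 and -0.13 that did not pass. Mcm2 averaged 386 ± 55 CPM in nutlin and 481 ± 21 CPM in untreated control cells (SD, n = 3 each), and its call was lost without line 287. Cdt1, the MCM loading factor that geminin inhibits, rose by 0.30 ± 0.12 (edgeR adjusted p = 0.048), a call lost under 10 of 15 alternatives.

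Of the helicase activation genes 3 of 6 fell. The GINS subunit gene Gins2 averaged 13.6 ± 3.42 CPM in nutlin and 24.5 ± 2.58 CPM in untreated control cells (SD, n = 3 each), and fell by 0.88 ± 0.17 on the log2 scale. Gins1 fell by 0.65, a call lost under 6 of 15 alternatives and among them without line 287 or line 621. Gins3 fell by 0.34 (edgeR adjusted p = 0.0486), a call lost under 12 of 15, while Gins4 had a log2 response of -0.19 that did not pass. Cdc45, the partner of GINS in the active helicase, had 84.9 ± 13.4 CPM in nutlin and 84.7 ± 1.38 CPM in untreated control cells (SD, n = 3 each).

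Among primase and polymerase genes 4 of 9 fell. Pole2, a small subunit of polymerase epsilon, averaged 21.4 ± 14.3 CPM in nutlin and 42.9 ± 13.6 CPM in untreated control cells (SD, n = 3 each) and fell by 1.14 ± 0.20 on the log2 scale. Pole, the catalytic subunit of that polymerase, fell by 0.21, a call lost under 10 of 15 alternatives. Prim2, the large primase subunit, fell by 0.37, a call lost under 8 of 15. Pola2 of polymerase alpha fell by 0.47, a call lost without line 287, and its catalytic partner Pola1 had a log2 response of 0.12 that did not pass. Prim1, the catalytic primase subunit, had a log2 response of -0.12 (edgeR adjusted p = 0.253).

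Of the clamp, clamp loader and single-strand binding genes 6 of 9 fell. Pcna, the sliding clamp, had 123, 123 and 127 CPM in nutlin libraries of lines AH47A, 287 and 621, against 214, 285 and 235 CPM in their untreated libraries. All control nutlin libraries lay below all control untreated libraries. The log2 response was -0.97 ± 0.12 (SE, edgeR adjusted p = 1.22e-06), the smallest p of the 47. The mouse genome holds 2 Pcna pseudogenes and 1 Tyms pseudogene, and how the counting treated reads shared with them is not stated in the sources used here. Rpa2 and Rpa3, smaller subunits of the single-strand binding protein RPA, fell by 0.74 and fell by 0.96, and the large subunit Rpa1 had a log2 response of -0.17 that did not pass. The Rpa3 call was lost without line 287 or line 621. The other 3 calls were clamp loader subunits and depended on the setting: Rfc4 fell by 0.49, Rfc1 fell by 0.24 and Rfc2 fell by 0.22, and these calls were lost under 13, 7 and 12 of 15 alternatives.

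The flap endonuclease Fen1, which trims Okazaki fragments, fell by 1.01 ± 0.23 on the log2 scale, a call lost without line 287. The ligase Lig1, which seals them, had a log2 response of -0.14 that did not pass. Of 5 deoxynucleotide supply genes 3 fell. Dut, the dUTPase, fell by 1.00 ± 0.26 on the log2 scale (edgeR adjusted p = 0.00301). This call needed both line 287 and line 621. Rrm2, the regulated subunit of ribonucleotide reductase, fell by 0.89 ± 0.18, and its partner Rrm1 fell by 0.25, a call lost without line 287 or line 621. Thymidylate synthase, Tyms, had a log2 response of -0.28 ± 0.13 and thymidine kinase, Tk1, of -0.21 ± 0.18, and neither passed.

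Both E cyclins, which drive CDK2 at the G1/S boundary, fell. Ccne2 had 30.4, 32.5 and 28.1 CPM in nutlin libraries of lines AH47A, 287 and 621, against 69.9, 58.5 and 49.5 CPM in their untreated libraries. These groups did not overlap, and the log2 response was -0.96 ± 0.15 (edgeR adjusted p = 2.17e-05). Ccne1 had 15.5, 42.0 and 19.6 CPM in nutlin libraries of lines AH47A, 287 and 621, against 39.6, 49.1 and 60.5 CPM in their untreated libraries. Line 287 had the smallest change, and its nutlin library overlapped the untreated group. The Ccne1 response of -0.94 ± 0.23 (edgeR adjusted p = 0.00252) was not called without line AH47A or line 621.

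All 4 chromatin replication genes fell. Uhrf1, which couples maintenance DNA methylation to replication, had 182, 138 and 155 CPM in nutlin libraries of lines AH47A, 287 and 621, against 298, 411 and 295 CPM in their untreated libraries. The groups did not overlap, and the log2 response was -1.07 ± 0.15 (edgeR adjusted p = 9.43e-06). Slbp, which binds the stem-loop of replication-dependent histone mRNAs, fell by 0.67 ± 0.12 on the log2 scale. The CAF-1 chaperone genes Chaf1b and Chaf1a, which deposit histones behind the fork, fell by 0.93 and fell by 0.38, the Chaf1a call being lost without line 287.

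Per length, untreated control levels ran between 9.38 ± 4.5 RPKM for Tyms and 194 ± 28.8 RPKM for Pcna (SD, n = 3 each), with Mcm6 at 183 ± 30.6 RPKM next below Pcna and within its spread.

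In cells with mutant TRP53, nutlin-3a lowered 17 of the 47 genes in R270H cells (14.3% of all genes), 15 in I192S cells (11.2%), 9 in R246Q cells (9.41%), 7 in G280 cells (6.7%) and 1 in V170M cells (2.45%). The 1 gene with V170M was Ccne2, and the 1 rise in any mutant was Pola1 with R270H, where 15.8% of all genes rose. The median log2 response of the 47 genes was -0.22 in I192S cells, -0.18 in R270H cells, -0.15 in R246Q cells, -0.13 in V170M cells and -0.12 in G280 cells. The counts depended on the model and on single libraries. With a separate response for each line, 24 members were called in either direction in R270H cells (45.3% of all genes), 23 in I192S cells (41.6%), 20 in R246Q cells (39.6%), 17 in G280 cells (37.2%), 16 in V170M cells (29.2%) and 36 in control cells (53.7%). Of these, 23, 22, 18, 15, 14 and 35 fell, in the same order. With the mutants, the counts in either direction are near the share over all genes. Shares of all genes that fell in this fit are not given here. Leaving out 1 line or library, in the model with a common response, gave 1 to 20 called members with R270H, 2 to 17 with I192S, 1 to 12 with R246Q, 0 to 10 with G280 and 0 to 6 with V170M, against 18, 15, 9, 7 and 1 with all libraries. Without line 287 the counts were 5, 5, 2, 0 and 0, and without line 621 they were 1, 2, 3, 3 and 1. They are not tests of a difference from the control.

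The difference in response, mutant minus control, was positive for 45 of 47 genes in the mean of the 5 mutants, with a median of 0.19 on the log2 scale against -0.002 over all genes. It passed the test for 7 genes, Pcna, Uhrf1, Slbp, Pole2, Cdc6, Rpa2 and Orc1, where 1.85% of all genes were higher and 1.53% lower. These 7 calls depended on the model. They came from a fit in which each line has its own response to nutlin-3a. With a common response for the 3 lines no member passed, and none passed without line 287. DESeq2 called 11. All 5 mutants are compared with the same 6 control libraries.

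Pcna under nutlin-3a stood at 80.6% of its untreated level in V170M cells, 76.9% in R270H cells, 75.4% in G280 cells, 73.7% in R246Q cells and 72.0% in I192S cells, against 51.1% in control cells. In CPM, the 15 mutant nutlin libraries had a lowest value of 148, a median of 174.8 and a highest of 218.7, against 123, 123 and 127 CPM in the 3 control nutlin libraries. No mutant library overlapped the control libraries. The response difference was 0.56 ± 0.08 (SE, edgeR adjusted p = 0.00129).

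Uhrf1 under nutlin-3a stood at 79.0% of its untreated level in V170M cells, 72.7% in G280 cells, 67.2% in I192S cells, 66.3% in R246Q cells and 63.5% in R270H cells, against 47.8% in control cells. The 15 mutant nutlin libraries had a lowest value of 203.6, a median of 242.6 and a highest of 285.1 CPM, against 182, 138 and 155 CPM in control nutlin libraries, with no overlap. Its response difference was 0.54 ± 0.09 (edgeR adjusted p = 0.00229).

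Slbp under nutlin-3a stood at 96.7% of its untreated level in R270H cells, 94.9% in R246Q cells, 91.7% in G280 cells, 84.5% in V170M cells and 79.1% in I192S cells, against 62.9% in control cells. The 15 mutant nutlin libraries had a lowest value of 83.78, a median of 99.16 and a highest of 126.1 CPM, against 72.9, 63.8 and 78.4 CPM in control nutlin libraries, again with no overlap. The response difference was 0.50 ± 0.10 (edgeR adjusted p = 0.00922), lost without line AH47A or line 287.

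The response differences of Pole2, Cdc6, Rpa2 and Orc1 were 0.69 ± 0.14, 0.52 ± 0.13, 0.37 ± 0.09 and 0.42 ± 0.12. The calls of Orc1, Rpa2, Cdc6 and Pole2 were lost under 30, 10, 9 and 5 of 44 alternatives. Those of Orc1 and Rpa2 were lost without any 1 of the 3 lines. The Cdc6 call was lost without line 287 or line 621, and the Pole2 call without line AH47A or line 287. For single mutants, V170M passed for 6 genes (Cdc6, Pole2, Pcna, Rpa2, Uhrf1 and Chaf1b, 1.81% of all genes higher) and G280 for 2 (Pcna and Uhrf1, 0.154% of all genes). Leaving out 1 line or library gave 0 to 8 for V170M and 0 to 7 for G280, with 0 for both without line 287 and 2 and 0 without line 621. I192S, R246Q and R270H passed for none of the 47, and for 0.00812%, 0.0162% and 0% of all genes. At an unadjusted p under 0.05 they had 13, 22 and 15 of the 47 genes, against 7.82%, 11.3% and 10.8% of all genes, and DESeq2 called 2, 3 and 3. Whether the 5 mutants differed among themselves in response was tested directly, and 0 members passed in edgeR or DESeq2 (0% of all genes). At an unadjusted p under 0.05 there were 0 members, against 2.19% of all genes, so this 0 is near the share over all genes. Ccne1 had a response difference of 0.54 ± 0.23 in the mean of the mutants (edgeR adjusted p = 0.203).

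**Figure D2:**
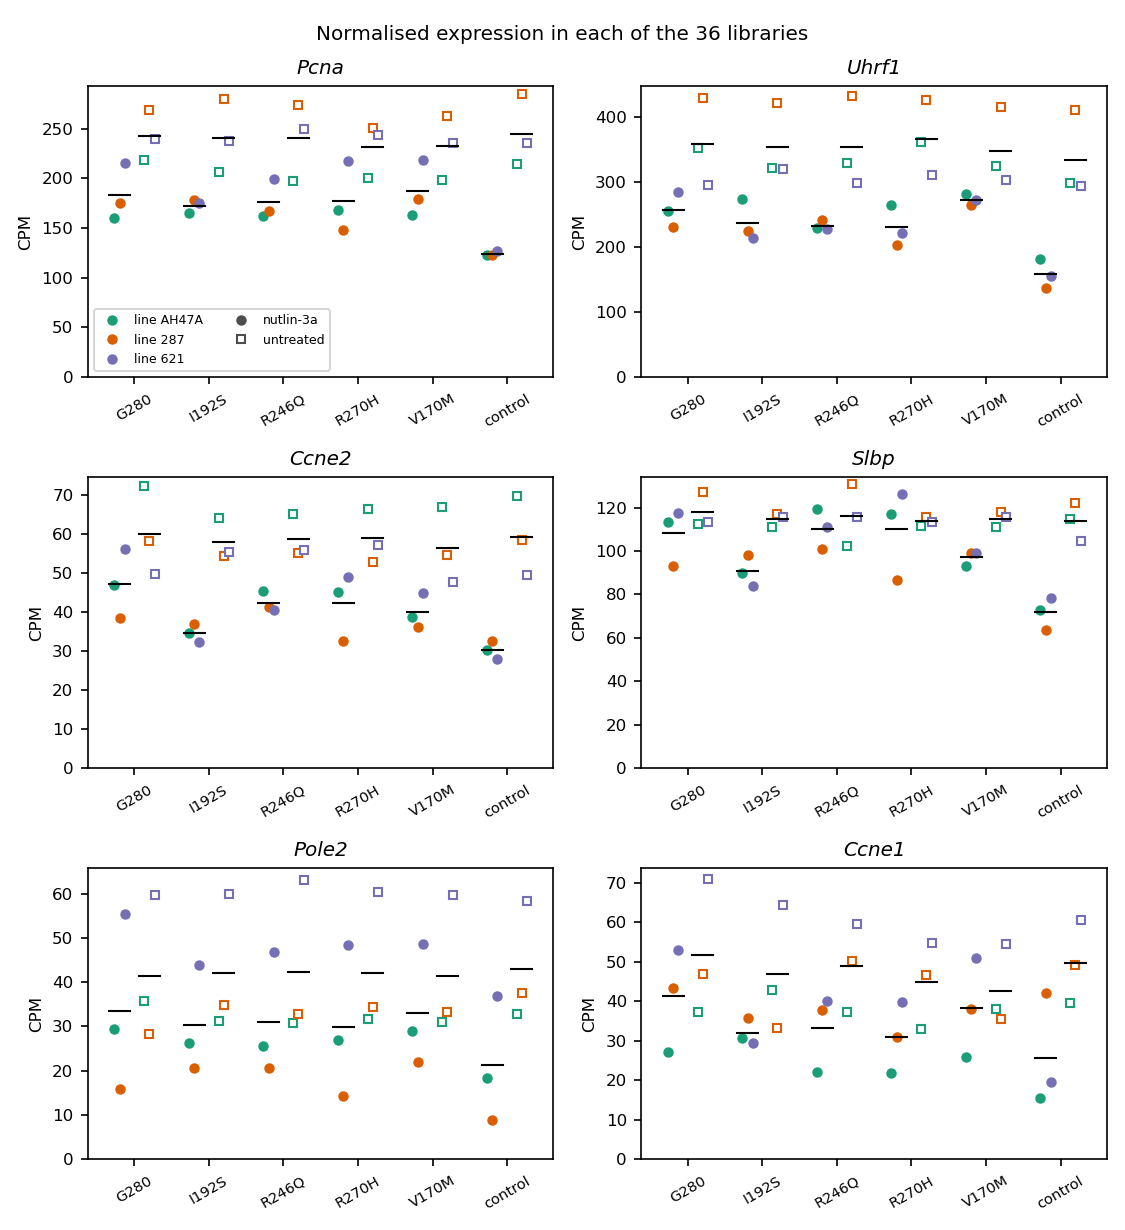
CPM in each of the 36 libraries is plotted for 6 genes, by construct, with nutlin-3a as filled circles, untreated as open squares, colours for the lines and bars for the mean of 3. For Pcna, Uhrf1 and Slbp the control nutlin libraries lie below every mutant nutlin library.

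In the nutlin libraries, which also had QVD-OPH, the mean of the mutants was compared with the control. It was higher for 26 of the 47 genes and lower for 0 (edgeR adjusted p under 0.05). Among all genes 7.22% were higher and 8.76% lower. The median difference was 0.21 on the log2 scale, against 0.001 over all genes. With the response common to the 3 lines 3 of the 47 passed, with no line term 0, without line 287 9 and without line 621 15, and DESeq2 called 26. The matching shares of all genes are not given here. By role, all 4 chromatin replication genes passed, 5 of 9 polymerase and primase genes, 5 of 9 clamp and RPA genes, 4 of 10 licensing genes, 3 of 5 deoxynucleotide genes, 2 of 6 helicase activation genes, both Okazaki fragment genes and 1 E cyclin, Ccne2. The largest differences were those of Uhrf1 at 0.64 ± 0.06 and Pole2 at 0.63 ± 0.11. By mutant, 23 members were higher in G280 cells (5.39% of all genes), 22 in V170M cells (7.76%), 18 in R246Q cells (3.28%), 11 in I192S cells (1.16%) and 8 in R270H cells (1.96%). Leaving out 1 line or library gave 3 to 19, 10 to 21, 2 to 13, 0 to 11 and 1 to 9 for these mutants, with 11, 10, 2, 0 and 5 without line 287 and 3, 14, 4, 8 and 1 without line 621. With a common response for the lines the counts were 0, 2, 1, 0 and 0.

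Before treatment no member passed between any mutant and the control in edgeR or DESeq2. Of all genes 0.00812% passed for each mutant and 0.0162% for their mean. At an unadjusted p under 0.05 there were 0 members, against 1.88% to 3.03% of all genes for single mutants. For the mean of the mutants the share was 2.23%, so these counts of 0 are near the share over all genes. The median difference in the mean of the mutants was 0.007 on the log2 scale. Pcna, for example, ranged between 197.5 and 279.5 CPM over the 15 mutant untreated libraries, against 214, 285 and 235 CPM in control untreated libraries.

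**Figure D3:**
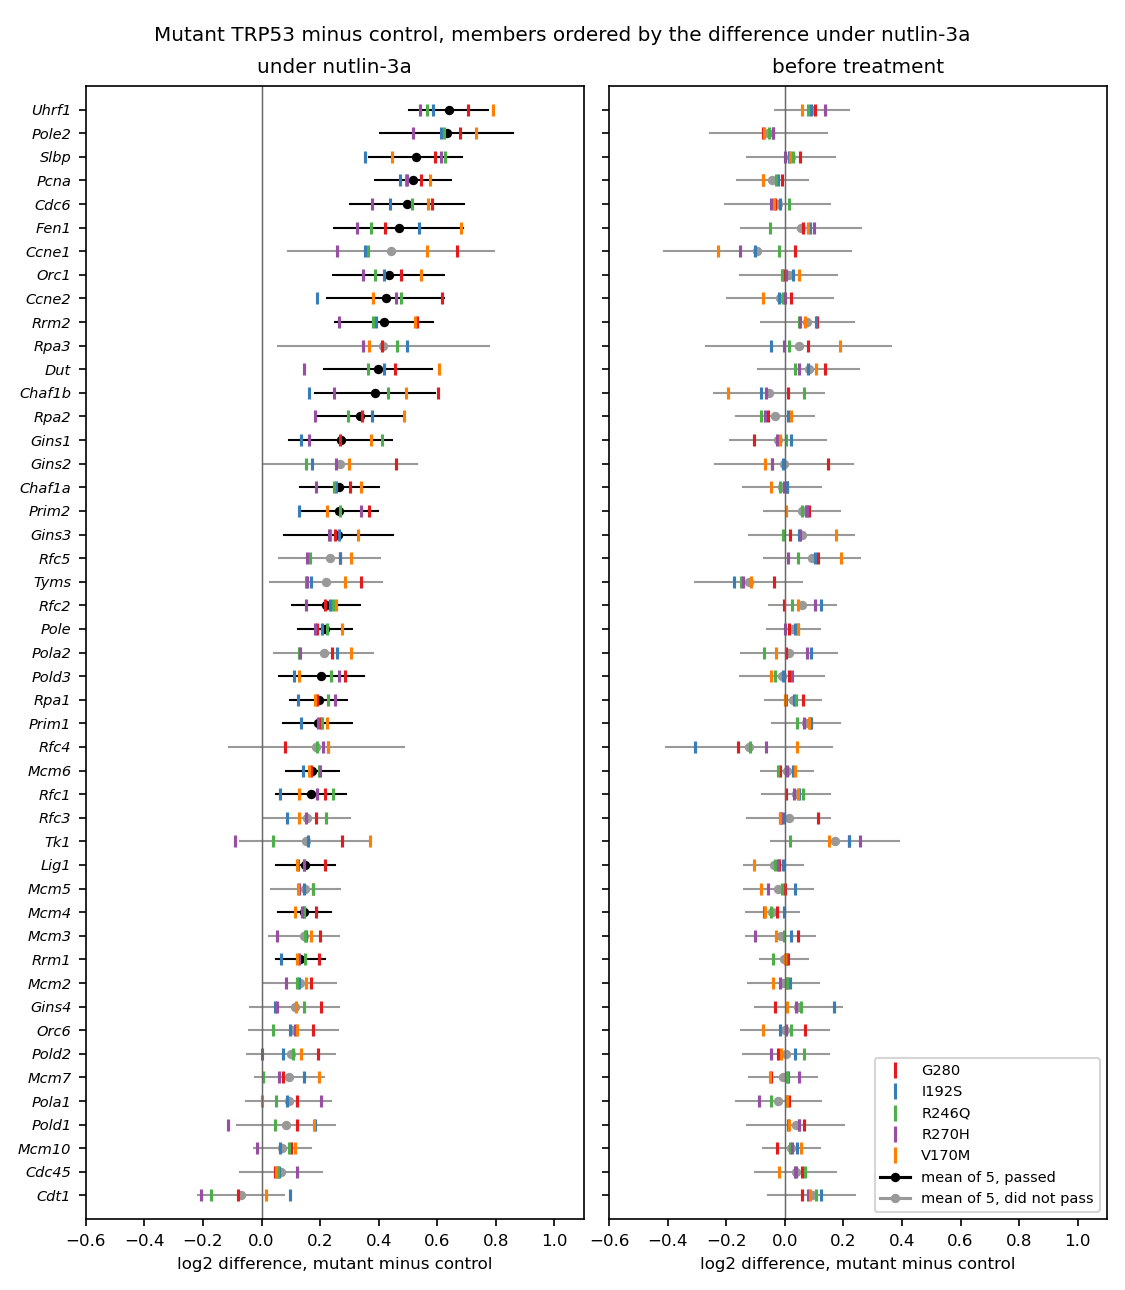
The log2 difference of mutant minus control is plotted for the 47 genes under nutlin-3a (left) and before treatment (right). Circles and bars are the mean of the 5 mutants with its 95% interval, black where the test was passed, and ticks are single mutants. On the left 46 of 47 means are above 0, and on the right they lie on both sides of 0.

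The order of libraries within a line uses no model. Control was the lowest of the 6 nutlin libraries in every line for 16 of the 47 genes (34%), against 4.12% of all genes, and the highest for 0, against 5.19%. In untreated libraries it was the lowest in every line for 1 gene, Uhrf1, against 0.56% of all genes, and the highest for 0, against 0.495%. All 6 nutlin libraries lay below all 6 untreated ones in every line for 6 genes, Gins2, Mcm7, Orc1, Pcna, Pole2 and Uhrf1 (12.8%), against 3.33% of all genes. Of the 15 pairs of a mutant and a control library within a line, the median number with the mutant above was 14 under nutlin-3a and 8 untreated for the 47 genes, and 7 in both for all genes. Median log2 responses of the 47 genes with the 5 mutants lay between -0.15 and -0.08 in line AH47A, against -0.25 in its control. They lay between -0.31 and -0.12 in line 287, against -0.42 in its control, and between -0.22 and 0.02 in line 621, against -0.33 in its control.

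**Figure D4:**
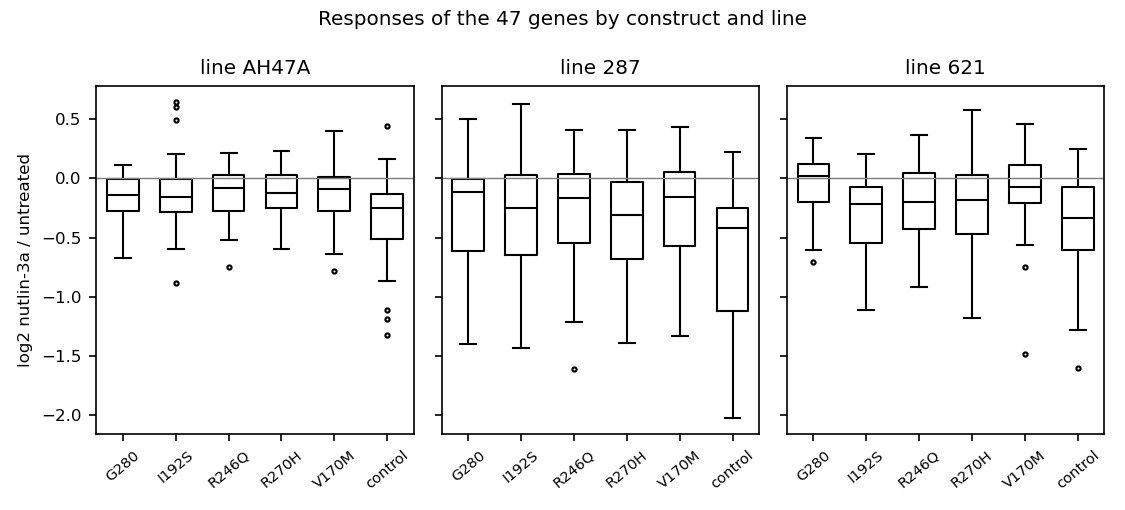
Box plots show the log2 nutlin-3a to untreated ratio of the 47 genes in each construct, for each line, with the median as a line, the box spanning the quartiles and outlying genes as circles. The control has the lowest median in each of the 3 lines (-0.25, -0.42 and -0.33 in AH47A, 287 and 621).

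The lines differed in how they responded. An F test between the 3 lines, over all constructs, passed for 31 of the 47 genes. It passed for 60.3% of all genes, so the share among the 47 is near the background. Without line 287 it passed for 9. Over 6 constructs, 21 genes fell and 2 rose in AH47A, 29 fell and 6 rose in 287, and 26 fell and 2 rose in 621, where 22.4%, 36.1% and 28.6% of all genes fell and 21.7%, 36.5% and 26.6% rose. These constructs share a line and describe that line only. Dut ranged between 150.8 and 263.5 CPM (median 195.9) over nutlin libraries of AH47A, and between 196.5 and 228.3 CPM (median 216.4) over its untreated libraries. In line 287 Dut ranged between 78.75 and 108.4 CPM (median 88.87) with nutlin-3a and between 190.7 and 218.5 CPM (median 203.7) untreated. In line 621 it ranged between 68.8 and 120.7 CPM (median 93.37) with nutlin-3a and between 168.4 and 196.8 CPM (median 177.6) untreated. The Dut groups overlapped in AH47A and not in 287 or 621.

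Line responses of Orc1 were -0.58 in AH47A, -1.47 in 287 and -0.51 in 621 on the log2 scale. Those of Uhrf1 were -0.43, -0.98 and -0.43. Rfc5, a clamp loader subunit, rose by 0.19 in AH47A, fell by 0.62 in 287 and fell by 0.41 in 621. Ccne1 showed another order, -0.69 in AH47A, -0.20 in 287 and -0.65 in 621, and its F test did not pass (edgeR adjusted p = 0.0527).

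**Figure D5:**
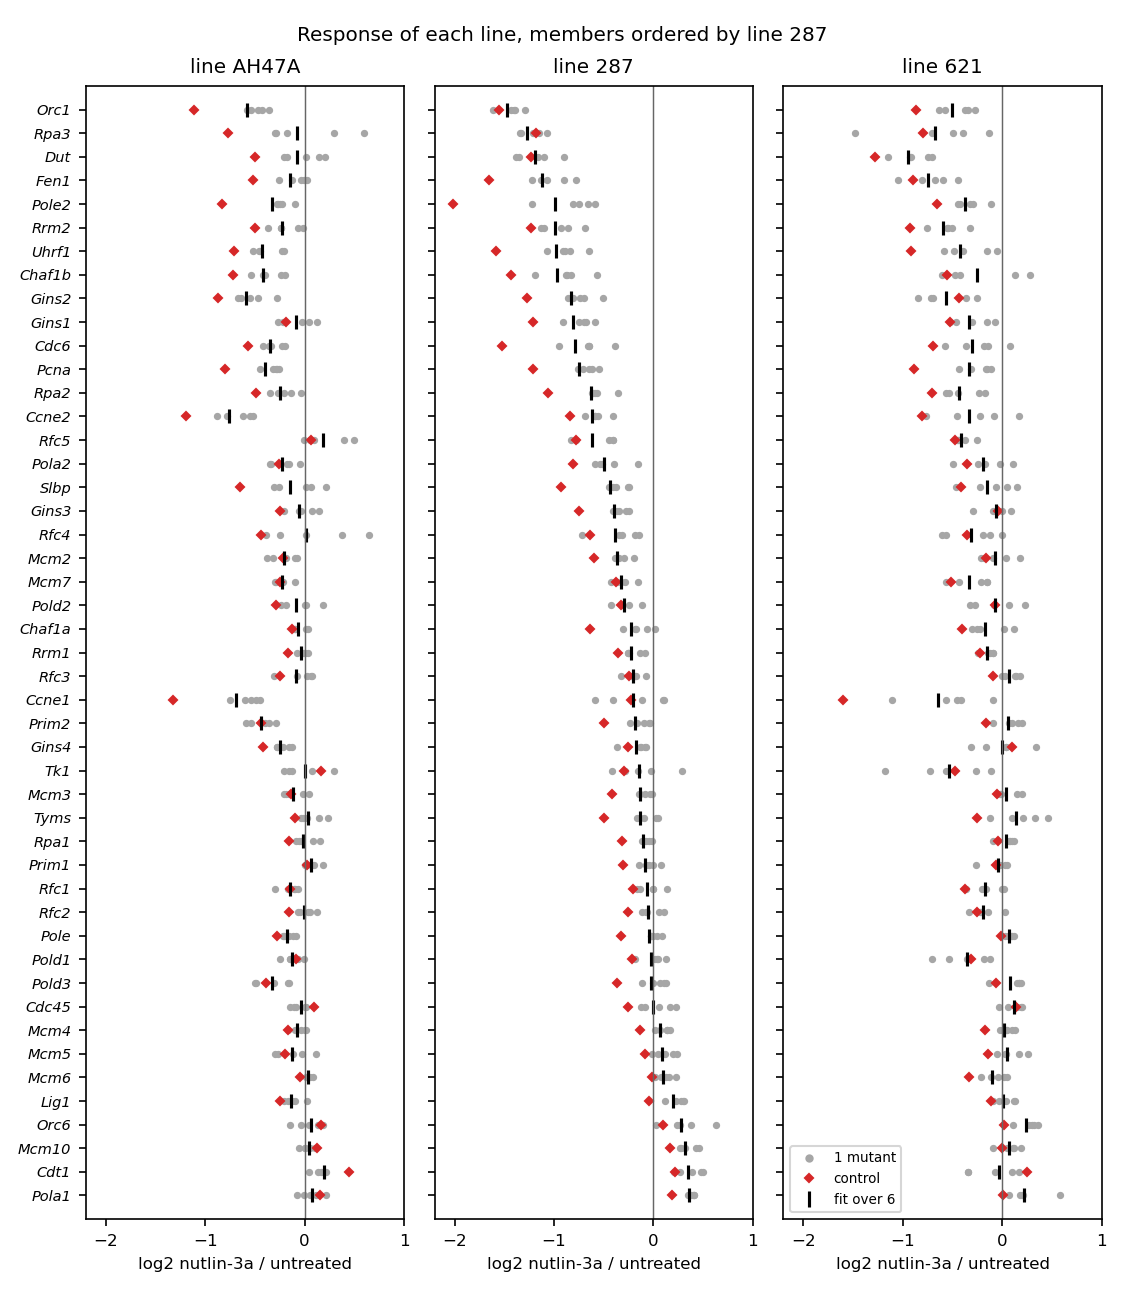
Log2 nutlin-3a to untreated ratios are plotted for the 47 genes in each line, with grey circles for single mutants, red diamonds for the control and black ticks for the fit over 6 constructs. Orc1 lies at -1.47 in line 287, against -0.58 in AH47A and -0.51 in 621.

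All 9 upstream regulators passed the test in control cells, where 20.8% of all genes fell and 21.9% rose. Cdkn1a rose by 6.61 on the log2 scale and the retinoblastoma family members Rb1, Rbl2 and Rbl1 rose by 1.61, 1.05 and 0.53, while the E2F genes E2f2, E2f3, E2f8, E2f7 and E2f1 fell by 1.30, fell by 0.99, fell by 0.99, fell by 0.87 and fell by 0.84. The Rbl1 call was lost under 9 alternatives, and the E2f7 and Rbl2 calls were lost without the cell line as a term. Under nutlin-3a, Cdkn1a averaged 291 ± 161 CPM in R270H cells, 270 ± 204 in I192S cells, 236 ± 146 in R246Q cells, 235 ± 148 in G280 cells and 178 ± 102 in V170M cells, against 413 ± 186 CPM in control cells (SD, n = 3 each). In the mean of the mutants the difference from the control under nutlin-3a was -0.87 ± 0.12 for Cdkn1a (edgeR adjusted p = 3.96e-05) and 0.49 ± 0.07 for E2f1, on the log2 scale. These 2 differences come from the fit with a line-by-treatment term and are not given here for other settings.

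Among 40 other replication genes 20 fell and 5 rose in control cells, where 20.8% of all genes fell and 21.9% rose, with a median log2 response of -0.26. Skp2, a ubiquitin ligase subunit that targets CDK inhibitors, fell by 1.28 and Rnaseh2c, of the ribonuclease that removes RNA from DNA, fell by 1.23, while the origin recognition complex genes Orc5 and Orc4 rose by 1.77 and 0.67. Without line 287, 7 fell and 4 rose, without the cell line as a term 6 fell and 3 rose, and the Rnaseh2c call was lost without line 287 or line 621. Under nutlin-3a, 17 of the 40 were higher and 4 lower in the mean of the mutants than in the control, against 7.22% and 8.76% of all genes. These counts come from the fit with a line-by-treatment term and are not given here for other settings. With a common response for the lines, most calls of the members themselves in this comparison were lost.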

How the data were processed

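The 47 genes and all gene lists were chosen with earlier results of these data known. Per the file headers, the authors deposited raw read counts per gene, with NCBI gene numbers and lengths. The submitters' processing notes name the tools featureCounts and bcl2fastq 1.8.4 and the build mm10 (GRCm38). The sources used here do not give the aligner, annotation or strand setting, so overlapping antisense genes cannot be told apart. All 36 per-sample files matched the table, and no library pair agreed within sampling noise (lowest chi-square per degree of freedom 1.88). The 859 genes without a symbol kept their number.

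Counts were scaled by TMM and tested with edgeR 4.0.16 in R 4.3.3 (quasi-likelihood, robust; filterByExpr with a minimum count of 10; Benjamini-Hochberg over 12321 genes; threshold 0.05). Nutlin responses came from 12 groups plus cell line (22 residual degrees of freedom, biological coefficient of variation 16%). Mutant and line differences came from a fit with a line-by-treatment term (20 residual degrees of freedom, 9.68%). Line responses came from line-by-treatment groups plus construct. SE is the log2 change divided by the square root of F. Within-line ratios used CPM plus 0.5. Replicate numbers are the 3 lines, so groups are paired by line through the labels. Of the 198 pairs of libraries of the same line, the deviations from group means correlated between 0.629 and 0.929.

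The labels name no repeat culture of a line, so p-values measure the spread between these libraries. Genes named in the text were, by role, those with the largest and smallest control response, all that rose, those with the smallest p for the mutant and line differences, and textbook S phase genes, besides partner subunits named for contrast after their values were seen. Tests were also run, after the main fits, on simulated counts, of which 12106 genes were tested. The simulated spread was that of the fit with a common response for the lines. The control response recovered 83% of genes changed by log2 1 and 20% by 0.5. The mean response difference recovered 75% and 18%, and the mean difference under nutlin 90% and 49%. Both differences were tested in the fit with a line-by-treatment term. Its own spread was smaller (9.68% against 16%), so these rates need not hold for it. Each size was given to 100 well-expressed genes, in the nutlin libraries of the control only. The simulated counts held no other nutlin response and none that differed between lines. The rates therefore do not describe recovery where lines respond differently. Alternatives were RLE scaling, no filter, DESeq2 1.42.0, no replicate block, the other model, subsets of libraries, and leaving out each line or library.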

Additional observations from a re-analysis of the deposited data

Results flagged for a closer look

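The nutlin response differed between the 3 lines, by an F test of the difference itself, for 31 of the 47 genes. That test passed for 60.3% of all genes, so the share among the 47 is near the background. The smallest adjusted p-values (edgeR's quasi-likelihood F test) were those of Dut at 3.28e-09, Orc1 at 1.76e-08, Rfc5 at 3.42e-07 and Uhrf1 at 3.92e-07. Without line 287 the test passed for 9 of the 47, and without line AH47A or 621 for at most 27. Summed myeloid markers were also highest in line 287, and their part in this was not tested.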

How the results depend on the processing

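Counts of called members under other settings follow, beside the reported count. Shares of all genes called under these settings are not given here, apart from those of the line-specific fit above. A changed count therefore need not be particular to these genes. For the control response (28), no replicate block gave 9 and only control libraries 15. For mutant responses with G280, I192S, R246Q, R270H and V170M (7, 15, 9, 18 and 1), no replicate block gave 0, 1, 0, 1 and 0, and only the construct's libraries 0, 0, 3, 5 and 0. No filter gave 3, 9 and 0 with G280, I192S and V170M, the line-specific fit 17, 23, 20 and 16 with G280, I192S, R246Q and V170M, and DESeq2 4 with V170M. For response differences of G280, I192S, R246Q, R270H, V170M and their mean (2, 0, 0, 0, 6 and 7), DESeq2 gave 7, 2, 3, 3, 13 and 11. The additive model and no replicate block gave 0 for each. For differences under nutlin (23, 11, 18, 8, 22 and 26), no replicate block gave 0 for each, the additive model 0, 0, 1, 0, 2 and 3, only nutlin libraries 9, 1, 3, 0, 14 and 17, and no filter 10 for R246Q. Removing the block leaves differences between lines in the error, and the additive model leaves line-specific responses there. Leaving out 1 line or library gave 13 to 28 for the control response; 0 to 10, 2 to 17, 1 to 12, 1 to 20 and 0 to 6 for the mutant responses; 0 to 7, 0 to 2, 0 to 1, 0 to 2, 0 to 8 and 0 to 10 for the response differences; 3 to 19, 0 to 11, 2 to 13, 1 to 9, 10 to 21 and 9 to 29 for the differences under nutlin; and 9 to 27 for the line test (31). Without line 287 the mean response difference passed for 0 members, in place of 7. Differences before treatment and between mutants were 0 under every alternative run. Of single genes, the control response of Cdc45, near 0, turned positive with RLE (0.0171), DESeq2 (0.0187), no block (0.00356) and the line-specific fit (0.00208), and ranged from -0.0929 to 0.134 over leave-outs. That of Prim1 ranged from -0.197 to 0.000165 over leave-outs. The reported fits have the line as replicate block, additive for nutlin responses and with a line-by-treatment term for mutant and line differences. The lowest count of these genes in any library was 38, and the 3 lines per group limit every test.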

Other observations

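Among 34 genes of G2/M and mitosis, 13 fell and 1 rose in nutlin control cells relative to untreated control cells (edgeR adjusted p under 0.05, where 20.8% of all genes fell and 21.9% rose), with a median log2 response of -0.41. Cdc25b, a phosphatase that activates CDK1, fell by 1.08 ± 0.24 on the log2 scale and Kif20a, a kinesin of cytokinesis, fell by 0.95 ± 0.28. Ndc80, a kinetochore component, rose by 0.80 ± 0.18. With a separate response for each line 26 fell and 2 rose, where 53.7% of all genes were called in either direction. Without the cell line as a term 0 fell and 1 rose. Without the nutlin or the untreated control library of line 287, or without line 621, 4 fell, and the Kif20a call was lost. Under nutlin-3a, 8 of the 34 were higher and 2 lower in the mean of the mutants than in the control, against 7.22% and 8.76% of all genes. This comparison used the fit with a line-by-treatment term, and its counts are not given here for other settings.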
